A study of Homo sapiens with 12 samples.

Results

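The early and the late time of GSK-A1 exposure were compared through their ribosome footprints: 4 of the 12 libraries of the series, 2 replicates at 360 min against 2 replicates at 60 min, chosen by their titles. All libraries came from HEK293T, an immortalised line from human embryonic kidney that expresses the SV40 large T antigen, with the genotype given as WT. All carry the label of GSK-A1, which blocks PI4KA, a lipid kinase. The times were 0, 60 and 360 min, and ribosome-protected fragments (RPF) and polyadenylated mRNA were each sequenced from 2 replicates at each time. The labels do not say whether replicates were separate cultures, so p-values measure the spread between these libraries, which may be technical. They also state neither the dose nor whether a vehicle was used, and no untreated library of 60 or 360 min was analysed here, so time in culture and time with the inhibitor cannot be told apart.

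PI4KA phosphorylates phosphatidylinositol to its 4-phosphate at the plasma membrane, a lipid from which other phosphoinositides are made and which is exchanged for phosphatidylserine at contacts with the endoplasmic reticulum. A ribosome shields a short piece of the mRNA it is reading from nuclease, and sequencing those pieces counts ribosomes on each transcript. The footprint count of a transcript therefore follows both the amount of its mRNA and the number of ribosomes on each copy, and the mRNA libraries of the same times help to read one against the other. Footprint levels are relative within a library, so a general rise or fall of translation cannot be seen in them.

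The files name transcripts by Ensembl identifier, and 0 of the 18338 identifiers were paired with a gene by the tables used here. Classes of genes by function, the markers of HEK293T cells and the sequences of genes were therefore not analysed. Transcripts were classed instead by measures taken in libraries other than the 4 compared: their footprint to mRNA ratio at 0 min, their footprint level at 0 min, and the change of their mRNA between 60 and 360 min. Of 17589 transcripts listed in any RPF file, 9653 had enough counts to be tested, and 12363 were listed in all 4 compared files.

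In replicate 1 the RPF total was 982894 at 60 min and 825633 at 360 min, and in replicate 2 it was 655623 and 546547. RPF 360 min replicate 2, the shallowest of the RPF libraries, stood apart from the others. Its log2 levels correlated with those of the 0 min RPF libraries at 0.848 and 0.864, against 0.905 and 0.944 for RPF 360 min replicate 1. With the 6 mRNA libraries it correlated at 0.707 at the median, whereas the other RPF libraries had medians from 0.670 to 0.681. These are correlations across the 8632 transcripts tested in both assays, which are not independent replicates. The classes by ratio, the change in efficiency of the lowest ratio class and the 4 single transcripts below are also given without it.

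Each 60 min footprint profile differed from each 360 min profile by less than the 360 min replicates differed from each other. The share of counts that would have to be placed on other transcripts to turn one library into another was 14.7% between the replicate 1 libraries of the 2 times and 26.1% between the replicate 2 libraries. It was 26.1% from 60 min replicate 2 to 360 min replicate 1, and 28.7% from 60 min replicate 1 to 360 min replicate 2. Within a time, the same share was 19.7% between the 60 min replicates and 30.7% between the 360 min replicates, the highest of the 6 pairs.

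No transcript passed the threshold between the times in the main fit, which has no replicate block. With edgeR's quasi-likelihood test over 9653 transcripts, 0 (0%) had an adjusted p-value under 0.05, and the smallest was 0.315. The count at an unadjusted p-value under 0.05 was 753 (7.8%), of which 469 (4.86%) were higher and 284 (2.94%) lower at 360 min. Scaled by library totals instead of TMM factors, that split was 318 higher and 361 lower. DESeq2's Wald test called 6. Without RPF 360 min replicate 1, edgeR called 75, and without RPF 360 min replicate 2 it called 1, where the lone late library was assumed to vary like the other groups; without either 60 min library it called 0. With the replicate number as a block in edgeR's fit, 7 transcripts passed, all of them higher at 360 min, while 665 (6.89%) were higher and 458 (4.74%) lower before adjustment at 0.05. Both 360 min libraries lay above both 60 min libraries for 1686 transcripts (17.5%) and below both for 1733 (18%). Of these, 535 (5.54% of those tested) were higher by more than 1 on the log2 scale and 390 (4.04%) lower by more than that. For 2 against 2 libraries without a time effect, the expected share that separates, both directions together, is 0.333. The 17.5% and 18% lie near that share, so separation alone does not show a change of a transcript. Log2 changes ran from −0.97 at the 5th percentile to 1.15 at the 95th, and the median SE of a change was 0.48.

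**Figure D1:**
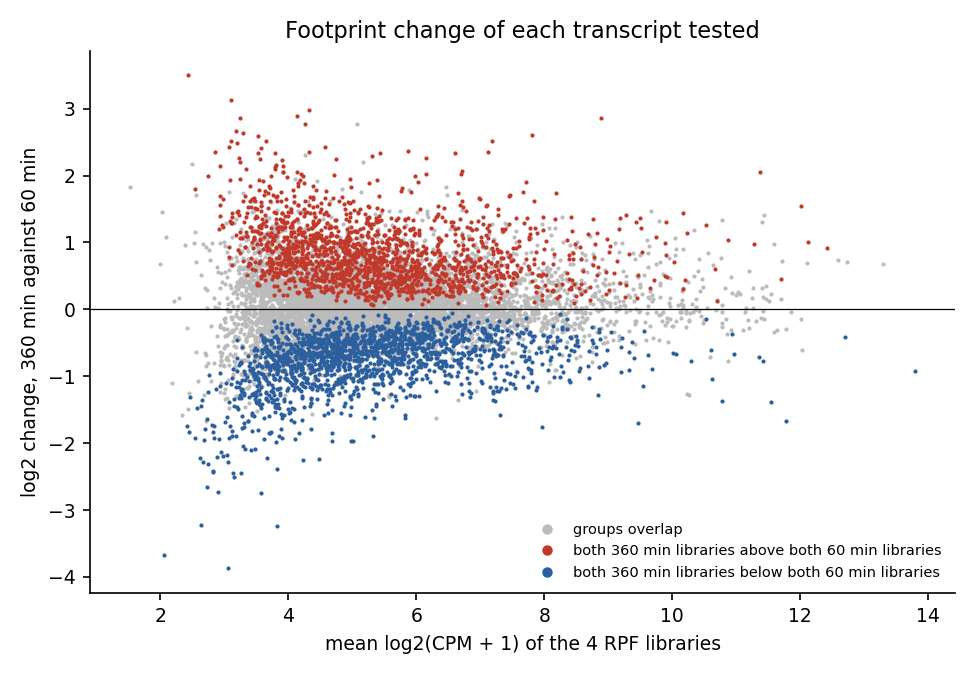
Log2 change in footprints from 60 to 360 min of each of the 9653 transcripts tested, against its mean log2(CPM + 1) over the 4 RPF libraries (CPM, counts scaled to a common library size by TMM factors). Red marks the 1686 transcripts whose 360 min libraries both lie above both 60 min libraries. Blue marks the 1733 whose libraries both lie below, and grey the rest. Without a time effect a share of 0.333 is expected to be red or blue. The spread is widest at low levels.

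The precision of a change depended on the level. When transcripts were split into 5 quintiles by footprint level at 0 min, the median SE of the log2 change was 0.71 in the lowest quintile, at a median of 12.4 CPM, and 0.42 in the highest, at a median of 172 CPM. It did not fall throughout, as the 100 most abundant footprints at 0 min had a median SE of 0.74 in the same fit. The median log2 changes of the 5 quintiles lay between 0.02 and 0.05, but the late libraries differed. In the highest quintile the median differences were 0.11 and 0.19 with 360 min replicate 1, and −0.12 and −0.22 with 360 min replicate 2. In the lowest they were −0.12 and −0.22 with 360 min replicate 1, and 0.15 and 0.23 with 360 min replicate 2. In the lowest quintile 336 transcripts (17.4%) had both 360 min libraries above both 60 min libraries and 341 (17.7%) had them below, and in the highest these numbers were 333 (17.2%) and 315 (16.3%). These shares lay near the 17.5% and 18% of all transcripts.

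The most abundant footprints differed by replicate number more than by time. Among the 100 transcripts with the highest footprint level at 0 min, the level in replicate 1 exceeded that in replicate 2 by a median of 0.83 on the log2 scale at 0 min, 0.80 at 60 min and 1.25 at 360 min. The median log2 difference from 60 to 360 min in these transcripts was 0.13 between the replicate 1 libraries and −0.25 between the replicate 2 libraries. With the numbers crossed it was 1.09 (360 min replicate 1 against 60 min replicate 2) and −1.03 (360 min replicate 2 against 60 min replicate 1). The 360 min libraries lay above both 60 min libraries together for 10 of the 100 and below for 11, where the shares over all transcripts were 17.5% and 18%. The offset between replicate numbers enters this overlap and the SE of a fit without a block. In that fit 1 of the 100 was higher and 0 were lower at an unadjusted p-value under 0.05 in edgeR's test, at a median SE of 0.74. With the replicate block 9 (9%) were higher and 3 (3%) lower, beside 6.89% and 4.74% of all transcripts, and the median SE was 0.40, against 0.43 over all. None of the 100 reached an adjusted p-value under 0.05 in either fit.

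Transcripts with a low footprint to mRNA ratio at 0 min were higher at 360 min at the median, in 1 of the 2 late libraries only, and by an amount that depended on which 0 min libraries set the ratio. This ratio stands for ribosomes per mRNA copy before the inhibitor, apart from transcript length, and was computed for the 8632 transcripts tested in both assays. The 1727 transcripts in its lowest quintile, with a log2 ratio under −0.75, had a median log2 footprint change of 0.37 from 60 to 360 min, against 0.04 over all transcripts tested. When replicate 1 alone set the 0 min ratio, a choice made after seeing the data, the medians of the lowest and the highest quintile were 0.11 and 0.0605. When replicate 2 alone set it, they were 0.46 and −0.0833. In the lowest quintile by both replicates 402 transcripts (23.3%) had both 360 min libraries above both 60 min libraries and 150 (8.69%) had them below, where 17.5% and 18% of all transcripts did. At an unadjusted p-value under 0.05 in edgeR's test, 168 (9.73%) were higher and 10 (0.579%) lower, beside 4.86% and 2.94% over all transcripts. With the replicate block 225 (13.0%) were higher and 24 (1.39%) lower, beside 6.89% and 4.74% over all. The median changes of the other 4 quintiles, from low to high, were 0.04, −0.01, −0.02 and −0.01.

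The 360 min replicates differed on these transcripts. In 360 min replicate 2, 67.7% of the lowest quintile lay above both 60 min libraries and 15.1% below both, where 38% and 37.8% of all transcripts did. In 360 min replicate 1, 30.2% lay above both and 40.8% below both, nearer to the 37.2% and 36.8% of all transcripts. The median log2 difference of the lowest quintile was 0.61 between the replicate 2 libraries of the 2 times and −0.06 between the replicate 1 libraries. In edgeR's fit without RPF 360 min replicate 2 the median was −0.14, beside −0.04 over all transcripts. At an unadjusted p-value under 0.05 that fit had 53 of the quintile (3.07%) higher and 69 (4.00%) lower, beside 5.25% and 5.09% of all transcripts. Without RPF 360 min replicate 1 the median was 0.63, beside −0.04 over all, with 469 (27.2%) higher and 16 (0.926%) lower, beside 9.17% and 5.25%. A higher level of these transcripts was thus seen in replicate 2 and not in replicate 1.

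The highest quintile of the ratio, transcripts with a log2 ratio of at least 0.90, went the other way in each late library. Its median log2 difference was 0.12 between the replicate 1 libraries of the 2 times and −0.20 between the replicate 2 libraries. In 360 min replicate 1, 48.9% of these transcripts lay above both 60 min libraries, where 37.2% of all transcripts did. In 360 min replicate 2, 53.4% lay below both, where 37.8% of all did. Without RPF 360 min replicate 2 the fitted median was 0.13, and without replicate 1 it was −0.31. The fitted median with both was −0.01, the average of 2 libraries that differed.

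**Figure D2:**
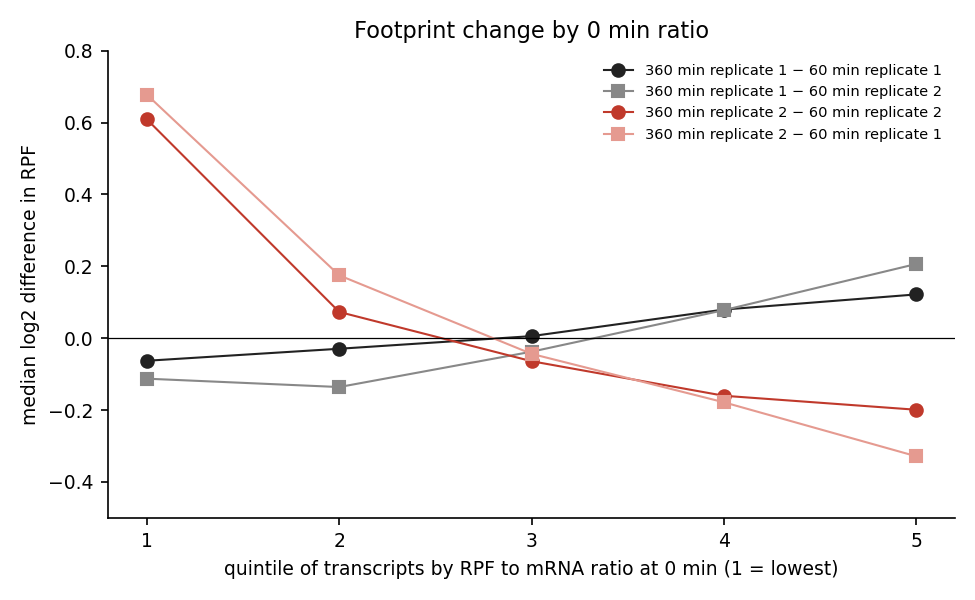
Median log2 difference in footprints (360 min minus 60 min) in quintiles of transcripts ordered by RPF to mRNA ratio at 0 min, for each of the 4 pairs of libraries. The pairs with 360 min replicate 2 (red) fall from 0.61 and 0.68 in the lowest quintile to −0.20 and −0.33 in the highest, and the pairs with 360 min replicate 1 (black and grey) run from −0.06 and −0.11 to 0.12 and 0.21.

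The same split was seen in whole libraries. Transcripts of the lowest ratio quintile took 12.6% (95% exact interval 12.5 to 12.6) and 12.7% (12.6 to 12.8) of the counts of the 8632 transcripts in the 0 min RPF replicates, which helped to set the ratio. They took 12.9% (12.8 to 13) and 13.6% (13.5 to 13.7) at 60 min. At 360 min they took 11.6% (11.6 to 11.7) in replicate 1 and 25.5% (25.3 to 25.6) in replicate 2. Replicate 2 of 360 min was the only RPF library outside 11.6% to 13.6%, and lay between the other RPF libraries and the mRNA libraries, where the share was 31.1% to 51.1%. With 2 libraries a time, the smallest 2-sided exact permutation p-value is 0.333, so that test of the share cannot pass the threshold. The intervals take each count as independent and leave out the spread between libraries. PCR copies are not separate molecules, so the intervals may be too narrow even for counting. What sets this library apart was not tested.

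**Figure D3:**
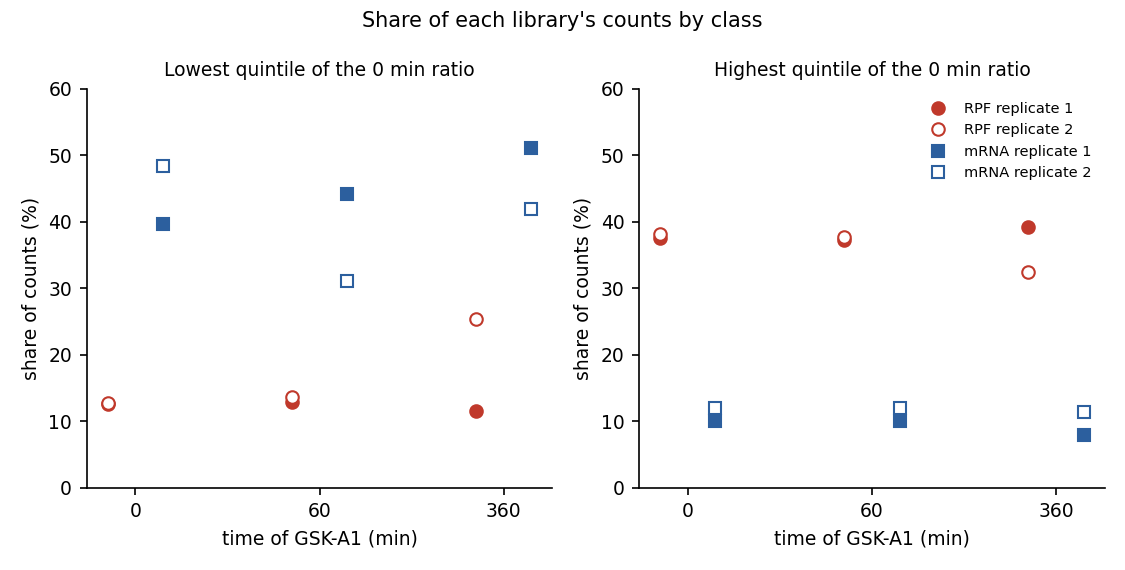
Share of counts, in percent of the counts of 8632 transcripts, taken by the lowest (left) and the highest (right) quintile of the 0 min RPF to mRNA ratio in each of the 12 libraries, by time; circles are RPF, squares mRNA, filled replicate 1 and open replicate 2. In the left panel 5 RPF libraries sit between 11.6% and 13.6% and RPF 360 min replicate 2 at 25.5%; in the right panel it is the lowest RPF library, at 32.4%.

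Transcripts with more mRNA at 360 min than at 60 min had more footprints at the median, and those with less mRNA had fewer, with either late RPF library. For 1729 of the 8632 transcripts, both 360 min mRNA libraries lay above both 60 min mRNA libraries (20.7% of all transcripts tested in mRNA did). The median log2 footprint change of these transcripts was 0.24, beside a median mRNA change of 0.77. For 1781 transcripts both lay below (19.6% of all tested in mRNA), and their median footprint change was −0.19, beside a median mRNA change of −0.85. The mRNA values themselves set these classes, which widens their mRNA medians, so the sizes of mRNA and footprint medians were not compared. The 5122 transcripts whose mRNA groups overlapped had a median footprint change of 0.07. In edgeR's mRNA fit of 9693 transcripts, 998 (10.3%) reached an unadjusted p-value under 0.05 but 0 (0%) the adjusted threshold of 0.05, so these classes are made of single changes that did not pass.

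In the class with higher mRNA, 464 transcripts (26.8%) also had both 360 min RPF libraries above both 60 min RPF libraries and 139 (8.04%) had them below, where 17.5% and 18% of all transcripts did. In the class with lower mRNA, 147 (8.25%) had them above and 522 (29.3%) below. The median log2 footprint difference of the class with higher mRNA lay between 0.20 and 0.23 in the 4 pairs of a 360 min and a 60 min RPF library. That of the class with lower mRNA lay between −0.26 and −0.16. Leaving out the transcripts of the lowest ratio quintile gave fitted medians of 0.23 over 1331 transcripts and −0.20 over 1586. With the classes set by all 4 mRNA libraries, no pair of RPF libraries turned the direction of either class.

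The median footprint change rose from each class of mRNA change to the next. In quintiles of transcripts ordered by mRNA change, the median mRNA log2 changes were −0.98, −0.41, −0.06, 0.31 and 0.86. The median footprint changes of these quintiles were −0.19, −0.03, 0.03, 0.12 and 0.29. The mRNA change itself sorted the transcripts, which widens the mRNA medians of the outer classes, so the sizes of the mRNA and footprint medians were not compared. Across the 8632 transcripts Pearson's r of the 2 changes was 0.232 and Spearman's rho 0.246. The transcripts share their libraries, so no p-value is given. No library is common to both changes, but the labels do not say whether the RPF and mRNA libraries of a time came from the same cells.

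This relation depended on which mRNA libraries set the order. Without mRNA 60 min replicate 2, r was 0.0604 and the quintile with the largest mRNA fall had a median footprint change of 0.0457 in place of −0.19. Without mRNA 360 min replicate 1, r was 0.119 and that quintile had a median of −0.05. Without mRNA 60 min replicate 1, r was 0.372 and the medians of the outer quintiles were −0.30 and 0.40. Without RPF 360 min replicate 1, r was 0.15, and without RPF 360 min replicate 2 it was 0.215. Over the 16 combinations of a single RPF difference and a single mRNA difference, r ran from −0.161 to 0.379. It was negative in 2 of them, both with RPF 360 min replicate 2 and with mRNA 360 min replicate 2 against 60 min replicate 1. The quintile with the largest mRNA rise had a positive median, 0.18 or more, without any one of the 4 mRNA libraries.

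**Figure D4:**
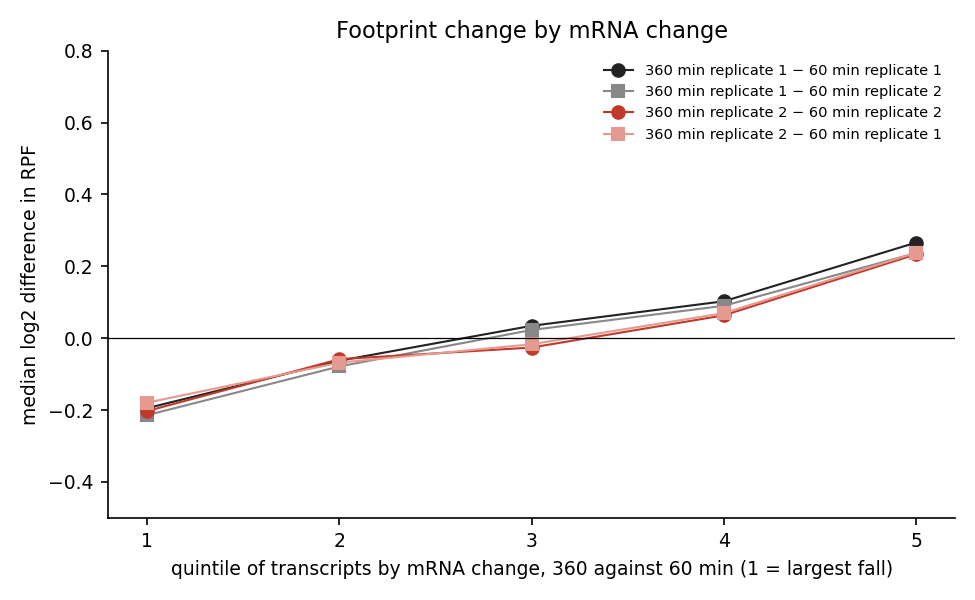
Median log2 difference in footprints (360 min minus 60 min) in quintiles of transcripts ordered by mRNA change between the same times, for each of the 4 pairs of RPF libraries. All 4 lines rise from left to right, from between −0.21 and −0.18 in the quintile with the largest mRNA fall to between 0.23 and 0.27 in the quintile with the largest mRNA rise.

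Translational efficiency, the footprint change relative to the mRNA change of the same transcript, was tested as an assay by time interaction. In edgeR's quasi-likelihood test 0 of 8632 transcripts (0%) had an adjusted p-value under 0.05, and at the unadjusted level of 0.05 there were 405 (4.69%), with 191 (2.21%) higher and 214 (2.48%) lower at 360 min. The lowest ratio quintile had a median log2 change in efficiency of 0.28, and the other quintiles lay between −0.05 and 0.03. That value rested on single libraries: it was −0.14 without RPF 360 min replicate 2 and −0.09 without mRNA 60 min replicate 1, and 0.50 without RPF 360 min replicate 1. At an unadjusted p-value under 0.05, 39 of the lowest quintile (2.26%) were higher and 71 (4.11%) lower, so the count and the median of that quintile went opposite ways. The median SE of a change in efficiency was 0.71.

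Transcripts below the mRNA filter formed a class of their own. These 1021 transcripts were tested in RPF but had too few mRNA counts for a ratio. Their median log2 footprint change was −0.08, and it lay between −0.12 and −0.10 in each of the 4 pairs of libraries. Both 360 min libraries lay below both 60 min libraries for 234 of them (22.9%) and above for 152 (14.9%), where 18% and 17.5% of all transcripts did. At a median SE of 0.69 their single changes were less precise than those of most classes. A further 249 transcripts were listed in both 360 min files and neither 60 min file, and 224 the other way round. None of these was tested, and a median of 3 counts in all lay behind each of them.

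Single transcripts with the smallest unadjusted p-values had larger changes than the medians of these classes, although none passed the adjusted threshold without a block. They were taken among transcripts with a mean of at least 30 CPM whose groups did not overlap, 1008 higher and 976 lower, 2 in each direction. Being picked for a small p-value tends to overstate a change. Their genes are not named, since the tables used here did not pair these identifiers with symbols.

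ENST00000370040 had footprint levels of 121 and 66.4 CPM at 60 min and 731 and 411 CPM at 360 min, in replicates 1 and 2. Both late libraries lay above both early ones, which rested on 112 and 46 counts. At 0 min the levels were 113 and 117 CPM, near those at 60 min. Its log2 change from 60 to 360 min was 2.60 (SE 0.47), with an adjusted p-value of 0.315 in edgeR's test and 0.00859 with the replicate block. The log2 change was 2.08 without RPF 360 min replicate 1 and 2.94 without RPF 360 min replicate 2. Without RPF 60 min replicate 1 it was 3.10, and without RPF 60 min replicate 2 it was 2.19. The mRNA levels were 28.9 and 3.70 CPM at 60 min, on 25 and 4 counts, and 78.6 and 28.4 CPM at 360 min, so the mRNA groups overlapped. The mRNA log2 change was 1.71 (SE 0.84) and that of efficiency 0.84 (SE 1.00), smaller than its SE.

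ENST00000601130 was the more abundant of the higher transcripts. It had 196 and 166 CPM at 60 min and 847 and 1787 CPM at 360 min, on 181, 115, 606 and 956 counts. The 0 min levels of 376 and 448 CPM lay between the early and the late ones, above both 60 min libraries and below both 360 min libraries. The log2 change from 60 to 360 min was 2.86 (SE 0.56), with an adjusted p-value of 0.315 in edgeR's test and 0.00859 with the replicate block. On leaving out RPF 360 min replicate 1 the log2 change was 3.26, and on leaving out RPF 360 min replicate 2 it was 2.21. Without RPF 60 min replicate 1 it was 2.97, and without RPF 60 min replicate 2 it was 2.69. Its mRNA was 49.7 and 25.0 CPM at 60 min and 70.1 and 81.7 CPM at 360 min, groups that did not overlap, with a log2 change of 1.04 (SE 0.53). Efficiency was higher by 1.79 on the log2 scale (SE 0.76); edgeR's p-value was 0.0330 before adjustment and 0.948 after it.

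ENST00000297784 had the smallest p-value among the lower transcripts. Its footprints stood at 56.3 and 66.4 CPM at 60 min and at 9.79 and 22.4 CPM at 360 min, the latter on 7 and 12 counts. At 0 min they were 32.3 and 27.7 CPM, below both 60 min libraries and above both 360 min libraries. The log2 change from 60 to 360 min was −1.96 (SE 0.49), with an adjusted p-value of 0.344 in edgeR's test and 0.108 with the replicate block. The log2 change was −2.64 without RPF 360 min replicate 2 and −1.48 without RPF 360 min replicate 1. Without RPF 60 min replicate 1 it was −2.09, and without RPF 60 min replicate 2 it was −1.89. Its mRNA levels overlapped, at 21.9 and 10.2 CPM at 60 min and 16.8 and 12.4 CPM at 360 min, a log2 change of −0.14 (SE 0.77). The log2 change in efficiency was −1.86 (SE 0.93), on mRNA counts of 19 and 11 at 60 min and 6 and 7 at 360 min. For that change edgeR's p-value was 0.0643 before adjustment and 0.948 after it.

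ENST00000247843 had 93.1 and 83.7 CPM at 60 min and 37.8 and 7.48 CPM at 360 min. The late replicates differed, on 27 and 4 counts, and both lay below both early ones. At 0 min the levels were 53.5 and 53.2 CPM. The log2 change from 60 to 360 min was −1.90 (SE 0.51), with an adjusted p-value of 0.412 in edgeR's test and 0.108 with the replicate block. Without RPF 360 min replicate 2 the log2 change was −1.24, and without RPF 360 min replicate 1 it was −3.58. Without RPF 60 min replicate 1 it was −1.82, and without RPF 60 min replicate 2 it was −2.02. Its mRNA groups did not overlap, at 38.1 and 55.5 CPM against 33.7 and 17.8 CPM, the latter on 12 and 10 counts. The mRNA log2 change was −0.91 (SE 0.50), in the direction of the footprint change. In edgeR's test its p-value was 0.104 before adjustment and 0.576 after it.

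**Figure D5:**
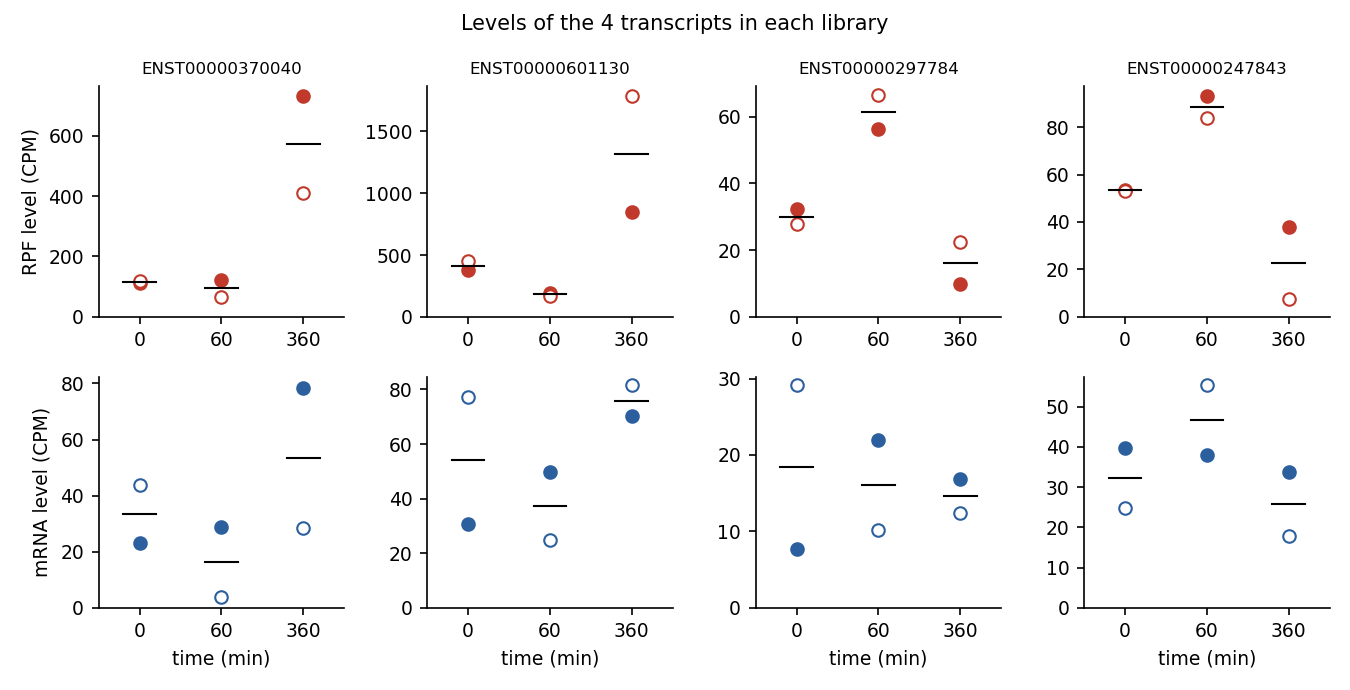
Levels in CPM of the 4 transcripts in each RPF library (upper row) and mRNA library (lower row) at 0, 60 and 360 min; filled circles are replicate 1, open circles replicate 2, and the bar is the mean of the 2. In the upper row both 360 min circles lie above both 60 min circles for ENST00000370040 and ENST00000601130 and below them for ENST00000297784 and ENST00000247843.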

How the data were processed

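Per the file headers and values, the values the authors deposited are raw counts by Ensembl transcript for 12 libraries, with only transcripts with at least 1 count listed; absent transcripts were set to 0. The submitters' processing notes name cutadapt 2.8, Bowtie 1.2.3 and STAR 2.7.10a; the counting program, genome build, counted region and use of strand are not given in the sources used here, so counts of near-identical or overlapping transcripts are uncertain. Tests were run with edgeR 4.0.16 in R 4.3.3: filterByExpr, TMM scaling and the quasi-likelihood test on the 6 libraries of each assay, by time; efficiency was the interaction over 12 libraries. The Benjamini-Hochberg procedure ran over all transcripts tested, and SE is the change divided by the root of F. DESeq2 1.42.0 was an alternative. The scripts were tested on simulated counts.

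Ratios at 0 min were log2(RPF CPM + 1) minus log2(mRNA CPM + 1) of group means. Pairwise differences used log2 CPM with a prior count of 2. Classes have no set test. The comparison and lists were chosen with earlier results of these data known, and the transcript classes after the files were seen; 37 gene lists were not computed for want of gene names. The 4 identifiers were taken by a set rule: groups that do not overlap, mean of at least 30 CPM, smallest p-value. Replicates differed by more than sampling noise (chi-square per degree of freedom 8.61 at 60 min and 16.7 at 360 min), so each library was counted as its own sample; this does not show that they came from separate cultures. The labels do not say that replicate numbers pair libraries, so the main fits have no replicate block. A blocked RPF fit is given as an alternative, on the data alone. The RPF replicate differences correlated at 0.254, 0.292 and 0.223 between 0 and 60, 0 and 360, and 60 and 360 min. In mRNA these were −0.371, −0.0594 and 0.334, and no pairing was assumed.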

Additional observations from a re-analysis of the deposited data

How the results depend on the processing

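In footprints, 0 transcripts reached the adjusted threshold of 0.05 with RLE factors, library totals alone, upper quartile scaling, a minimum of 10 counts in each RPF library, robust empirical Bayes, the 4 compared libraries alone and transcripts listed in all RPF files. There were 33 without a filter on low counts, 6 with DESeq2 and 7 with the replicate block, and 0 to 75 on leaving out 1 compared RPF library. The replicate block gave 665 higher and 458 lower transcripts at an unadjusted p-value under 0.05. Without a filter there were 658 higher and 491 lower, and with DESeq2 315 higher and 168 lower, each over 17589 transcripts. The minimum of 10 counts gave 312 higher and 200 lower over 6493. Leaving out 1 RPF library gave 211 to 972 higher and 153 to 556 lower. Without a filter 113 passed in mRNA and 2 in efficiency; library totals alone and the replicate block gave 0 in both, and no other blocked call differed. Leaving out 1 library of either assay, added after seeing the data, gave 0 in efficiency each time and −0.14 to 0.56 for the efficiency median of the lowest ratio quintile. Library totals alone moved the median log2 change of all transcripts from 0.04 to −0.07 in footprints and from 0.03 to 0.19 in efficiency.

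The median footprint change of transcripts with higher mRNA was 0.12 with library totals alone, 0.18 with upper quartile scaling, 0.18 without a filter, 0.20 with the minimum of 10 counts, 0.21 with DESeq2 and 0.14 to 0.25 without 1 RPF library. That of transcripts with lower mRNA was −0.31 with library totals, −0.24 with upper quartile, −0.24 without a filter, and −0.33 to −0.17 without 1 RPF library. Both kept their direction under all 14 alternatives, which changed the RPF fit but not the mRNA libraries that set the classes. Without 1 RPF library, the lowest ratio quintile ranged from −0.14 to 0.63 and the highest from −0.31 to 0.13. Without 1 mRNA library (chosen after seeing the data), the quintile with the largest mRNA fall ranged from −0.30 to 0.0457, reversed at 0.0457 without mRNA 60 min replicate 2, the quintile with the largest rise from 0.18 to 0.40, and r from 0.0604 to 0.372. The causes were not tested. With the 0 min ratio taken from replicate 1 or replicate 2 alone, also added later, the lowest quintile had 0.11 and 0.46 and the highest 0.0605 and −0.0833. The 4 named transcripts kept their direction in every fit that tested them. Without a filter all 4 passed, with edgeR adjusted p-values from 0.00240 to 0.0429. In DESeq2's Wald test the 2 higher ones did, at adjusted p-values of 0.000118 and 6.83e-07. The 2 lower ones were given no adjusted p-value there. The 4 were picked for groups that do not overlap and small p-values in these same libraries, so such refits are not separate support. Depth limits the lowest levels, where the median SE was 0.71.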
